A study of Mus musculus with 7 samples.

Results

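The 38 genes described here are known from astrocytes, the star-shaped glia of the brain, and were picked by symbol as genes that mark these cells. Each symbol had exactly 1 row among the 39017 Ensembl gene IDs of the count table (names from GENCODE M21, mm10), so that all 38 members were found, and all 38 passed the filter on low counts. The 7 RNA-seq libraries came from mouse hippocampus by TRAP (translating ribosome affinity purification), a method that pulls down EGFP-tagged ribosomes together with the RNA on them. All mice, per the labels and design text, were GAD2 cre+ crossed with L10-EGFP+. In crosses of this kind the tagged ribosomal protein is made where Gad2-driven Cre has acted, in the main in GABAergic neurons. The groups were bound RNA (pulled down, 3 libraries, titles GAD_ctrl1 to GAD_ctrl3) and unbound RNA (left behind, 4 libraries, of which 2 have titles starting UBS and 2 have titles starting UBGS). No age, sex or other treatment is given, the labels do not say what UBS, UBGS or ctrl stand for, nor whether bound and unbound RNA came from the same tissue, and each TRAP sample pooled 2 hippocampi. Nothing says that the libraries came from separate animals, so that p-values measure only the spread between these libraries.

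Astrocytes take up transmitters and potassium, move water, couple to each other through gap junctions, feed neurons, and supply lipids and matrix proteins to their surroundings. They are a different cell type from the GABAergic neurons in which Gad2 is mainly active. Several of the genes are made elsewhere too. Apoe is also a microglial gene, Clu and Sparcl1 are also made by neurons, Mt3 is found in neurons, Mt1 and Mt2 in many cell types, S100b in oligodendrocytes, Fabp7 and Gpr37l1 in the oligodendrocyte lineage, and Id4 in neural progenitors and some neurons.

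Library totals ranged from 38690380 to 51953811 counts. The pull-down was checked with Gad2, which stood at 756, 722 and 759 CPM in bound libraries, against 189.6 and 182 CPM (UBS) and 112 and 114 CPM (UBGS), and with Slc17a7 of excitatory neurons, at 14.3, 12.9 and 17.6 CPM in bound libraries, against 526 and 487 CPM (UBS) and 523 and 488 CPM (UBGS). CPM are counts per 1000000, with library sizes scaled by edgeR's TMM factors over all 7 libraries, and values in a sentence follow the order bound 1, 2, 3, then UBS7, UBS8, then UBGS8, UBGS9. Mitochondria-encoded RNA took 0.0867% to 0.123% of counts in bound libraries and 28.5% to 32.9% in unbound libraries. The 12 GABAergic markers listed summed to 6020 to 7909 CPM in bound and 580.2 to 729.5 CPM in unbound libraries, and all 12 were higher in bound libraries.

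The astrocyte genes were lower in the bound libraries, but by very different amounts. Of the 38 genes, 33 fell, 1 rose and 4 did not pass the threshold (edgeR quasi-likelihood test, adjusted p under 0.05). Of all 19563 genes tested 61.7% passed, 30.7% lower and 31% higher. The median log2 fold change, bound minus unbound, was −2.50 over the 38 genes and −0.01 over all genes tested. The mean bound level was between 2.63% of the mean unbound level, for the gap junction gene Gjb6, and 194.1%, for the metallothionein gene Mt3, with a median of 17.6%. It was under 20% for 22 genes and above 50% for 11. The 33 genes that fell were also those in which every bound library lay below every unbound library, which held for 31.6% of all genes tested. Bound and unbound are fractions of a pull-down, so that these values measure neither cell number nor RNA per cell. In bulk RNA, the number of cells and the RNA per cell cannot be told apart.

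**Figure D1:**
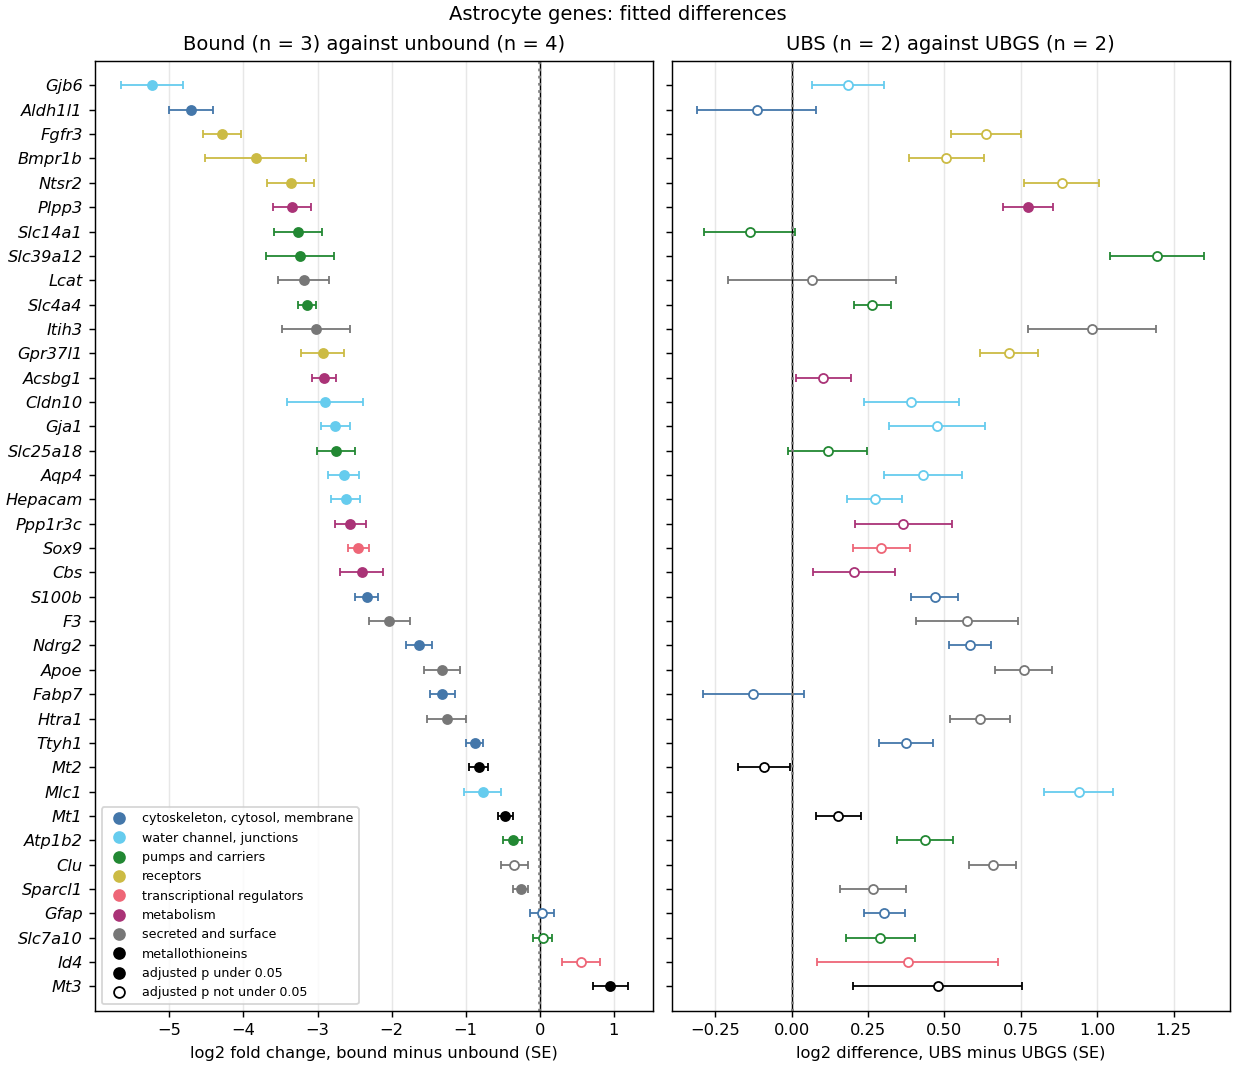
Fitted log2 differences with standard errors (SE) for the 38 astrocyte genes, ordered by the difference between bound and unbound libraries (left panel) and, in the same order, between the UBS and UBGS titles of the unbound libraries (right panel). Filled points have an adjusted p under 0.05, colours give the role of the gene, and the dotted line is the median of all genes tested; in the left panel the values run from −5.24 for Gjb6 to 0.95 for Mt3, and in the right panel 34 of 38 lie above 0.

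Levels were compared between genes per exon length, as TPM (length-scaled transcripts per 1000000) in the unbound libraries. The metallothionein gene Mt2 was highest at 188 ± 12.5 TPM, next to 172 ± 18.6 TPM for Sparcl1, a secreted matrix protein, and 145 ± 31.9 TPM for Ndrg2 (SD, n = 4 each), and each of these neighbours differed by less than the larger of their SDs. Atp1b2 followed at 102 ± 16.8 TPM, then Mt1 (83.6 ± 4.38 TPM), Apoe (76.5 ± 23.01 TPM) and Clu (71.8 ± 17.8 TPM). The last 3 differed by less than the SD of Apoe. These ranks depend on the merged exon length, 588 nucleotides for Mt2 and 1246 for Mt1. The transcripts compared below are 511 nucleotides for Mt2 and 549 for Mt1. In CPM, not scaled by length, Mt2 averaged 66.3 and Mt1 62.5 in the unbound libraries, so that their distance in TPM rests largely on that length. At the low end, Cbs stood at 1.52 ± 0.110 TPM, Itih3 at 1.76 ± 0.671 TPM and Aldh1l1 at 1.84 ± 0.268 TPM, and neighbours again differed by less than the larger SD. Fewer than 100 counts were found in every bound library for 9 members, so that their bound levels rest on few reads.

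The genes of the water channel, of junctions and of cell contacts were all lower, 6 of 6, with a median log2 fold change of −2.70. Gjb6, which encodes connexin 30, a gap junction protein of astrocytes, stood at 0.770, 0.112 and 0.340 CPM in bound libraries, against 15.1 and 17.9 CPM (UBS) and 14.4 and 14.5 CPM (UBGS). No bound library came near an unbound one (log2 −5.24, SE 0.42, edgeR adjusted p = 1.2e-06), and the bound counts were 45, 7 and 15. Gja1, the gene of the other main astrocyte gap junction protein, connexin 43, was at 14.8% of its unbound level (log2 −2.76). Aqp4, the water channel of astrocyte end-feet, stood at 6.66, 10.01 and 11.3 CPM in bound libraries, against 75.7 and 58.3 CPM (UBS) and 48.6 and 50.6 CPM (UBGS), with the bound libraries well below both series (log2 −2.65, SE 0.21, edgeR adjusted p = 1e-06). Hepacam, a cell adhesion protein that binds Mlc1, stood at 5.89, 4.75 and 8.60 CPM in bound libraries, against 45.1 and 40.9 CPM (UBS) and 37.1 and 34.01 CPM (UBGS) (log2 −2.62, SE 0.19, edgeR adjusted p = 6.6e-07), also without overlap. Cldn10, a claudin, was at 13.6% of unbound (log2 −2.90).

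Mlc1, a membrane protein that forms a complex with Hepacam in astrocyte contacts, kept more of its level than these. It stood at 10.8, 10.2 and 11.6 CPM in bound libraries, against 26.1 and 22.6 CPM (UBS) and 12.3 and 13.04 CPM (UBGS). The bound libraries were below all unbound ones (log2 −0.77, SE 0.25, edgeR adjusted p = 0.019), but close to the UBGS libraries, with a bound mean of 44.6% of the UBS and 85.7% of the UBGS mean. The call was lost without either UBS library, without bound replicate 1 or 2, with library totals, with a minimum of 1.5-fold and with the UBGS libraries alone, with adjusted p from 0.00023 to 0.24 over all alternatives.

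All 4 receptor genes fell, with the lowest median of the 8 role sets, −3.60, and bound levels of 5.04% to 13.2% of unbound. Fgfr3, a receptor for fibroblast growth factors, stood at 0.753, 0.929 and 0.658 CPM in bound libraries, against 20.04 and 17.7 CPM (UBS) and 11.7 and 12.6 CPM (UBGS). The 3 bound values were under 1 CPM and the 4 unbound ones above 11 (log2 −4.29, SE 0.26, edgeR adjusted p = 1.4e-07). Bmpr1b, a receptor for bone morphogenetic proteins, stood at 0.0171, 0.624 and 1.25 CPM in bound libraries, against 10.6 and 9.89 CPM (UBS) and 7.07 and 7.31 CPM (UBGS) (log2 −3.84, SE 0.68, edgeR adjusted p = 0.00068). Its bound libraries differed widely among themselves, with counts of 1, 39 and 55, all below the unbound counts. Ntsr2, the neurotensin receptor of astrocytes, stood at 1.76, 3.39 and 3.02 CPM in bound libraries, against 40.3 and 32.5 CPM (UBS) and 20.2 and 19.1 CPM (UBGS) (log2 −3.36, SE 0.32, edgeR adjusted p = 4.5e-06). Gpr37l1, an orphan receptor, stood at 2.60, 4.82 and 5.65 CPM in bound libraries, against 44.02 and 38.2 CPM (UBS) and 25.1 and 25.1 CPM (UBGS) (log2 −2.93, SE 0.29, edgeR adjusted p = 6.6e-06). Both were without overlap, and in both the UBS pair lay above the UBGS pair.

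Of 6 pump and carrier genes 5 fell, with a median of −2.94. Slc4a4, the sodium bicarbonate cotransporter, was at 11.4% of unbound (log2 −3.14), the urea transporter gene Slc14a1 at 10.6% (log2 −3.26) and Slc25a18, a mitochondrial glutamate carrier, at 14.7% (log2 −2.75). Slc39a12, a zinc transporter, stood at 1.46, 0.480 and 0.794 CPM in bound libraries, against 13.2 and 10.8 CPM (UBS) and 5.43 and 4.99 CPM (UBGS) (log2 −3.23, SE 0.46, edgeR adjusted p = 0.00011), and here too the UBS libraries were above the UBGS ones. Atp1b2, the beta-2 subunit of the sodium-potassium pump and a glial adhesion molecule, stood at 196, 181 and 205 CPM in bound libraries, against 312 and 264 CPM (UBS) and 216 and 208 CPM (UBGS). Its fall was small (log2 −0.36, SE 0.13, edgeR adjusted p = 0.028), and the call was lost in 8 alternatives, among them with the UBGS libraries alone (log2 −0.11, adjusted p = 0.22). Over all alternatives, those in which it passed included, adjusted p ran from 0.0016 to 1. With library totals in place of TMM its sign turned, at 0.07.

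Slc7a10, the small neutral amino acid transporter that carries serine and glycine, did not pass the threshold. It stood at 17.2, 19.1 and 20.3 CPM in bound libraries, against 21.8 and 18.6 CPM (UBS) and 16.3 and 16.7 CPM (UBGS), and the bound range lay within the unbound range (log2 0.04, SE 0.13, edgeR adjusted p = 0.8). It passed as higher with library totals (log2 0.47, adjusted p = 0.0041), and in no other alternative. The exons of Slc7a10 overlap those of Lrp3, on the other strand, over 17.9% of their length, and the strand setting of the counting is not given in the sources used here. Lrp3, a lipoprotein receptor-related gene, averaged 44.4 ± 1.004 CPM (SD, n = 3) in the bound group against 32.7 ± 1.28 CPM (SD, n = 4) in the unbound group (log2 0.44, edgeR adjusted p = 0.00055), and its part in the Slc7a10 value was not tested.

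Among 6 genes of the cytoskeleton, cytosol and membrane, 5 fell. Of widely used astrocyte markers among them, Aldh1l1 and S100b fell and Gfap did not pass the threshold. Aldh1l1, a folate enzyme used to mark all astrocytes, stood at 0.240, 0.160 and 0.159 CPM in bound libraries, against 4.29 and 5.26 CPM (UBS) and 5.76 and 4.59 CPM (UBGS). The 3 bound libraries held 14, 10 and 7 counts and lay far below the unbound ones (log2 −4.71, SE 0.30, edgeR adjusted p = 2.1e-07). Exons of an antisense gene cover 11% of its exon length. Gfap, the intermediate filament protein of astrocytes, stood at 43.4, 58.4 and 76.1 CPM in bound libraries, against 65.2 and 63.3 CPM (UBS) and 51.7 and 52.4 CPM (UBGS). Bound replicate 3 was the highest of all 7 libraries and bound replicate 1 the lowest, and the groups overlapped (log2 0.03, SE 0.16, edgeR adjusted p = 0.9). Without bound replicate 3 the log2 value was −0.19 (adjusted p = 0.28), and with library totals it was 0.45 (adjusted p = 0.021), and adjusted p ran from 0.021 to 1 over all alternatives.

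The other genes of that set lay between these ends. S100b, a calcium-binding protein, was at 19.8% of unbound (log2 −2.34) and Fabp7, a brain fatty acid-binding protein also known from radial glia, at 40.1% (log2 −1.32). Ndrg2, an abundant cytosolic protein of astrocytes, stood at 84.4, 87.3 and 116 CPM in bound libraries, against 372 and 340.4 CPM (UBS) and 241 and 234 CPM (UBGS) (log2 −1.63, SE 0.18, edgeR adjusted p = 1.5e-05). Ttyh1, a membrane protein of the tweety family, stood at 79.2, 77.7 and 85.3 CPM in bound libraries, against 180.5 and 155 CPM (UBS) and 125 and 133 CPM (UBGS) (log2 −0.88, SE 0.12, edgeR adjusted p = 6.5e-05). In both, every bound library was below every unbound one, but for Ttyh1 the bound mean was still 54.3% of unbound.

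**Figure D2:**
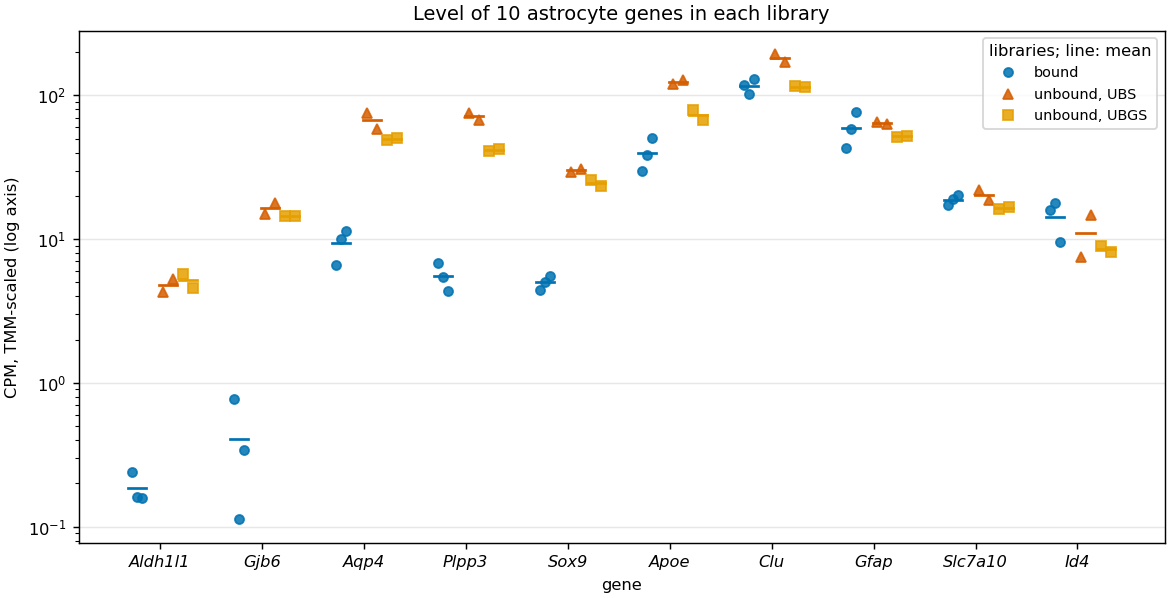
Level of 10 astrocyte genes in each library, in TMM-scaled CPM on a log axis, with bound libraries as circles, UBS as triangles, UBGS as squares and a line at each mean. Aldh1l1 and Gjb6 lie under 1 CPM in every bound library, whereas the bound values of Clu, Gfap, Slc7a10 and Id4 overlap those of the unbound libraries.

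All 4 metabolic genes fell, with a median of −2.74 and bound levels of 9.80% to 18.8% of unbound. Plpp3, a lipid phosphate phosphatase of the cell surface, stood at 6.87, 5.44 and 4.36 CPM in bound libraries, against 75.7 and 67.4 CPM (UBS) and 41.1 and 42.5 CPM (UBGS) (log2 −3.34, SE 0.26, edgeR adjusted p = 8.5e-07). Ppp1r3c, which targets a phosphatase to glycogen, stood at 2.28, 3.51 and 3.33 CPM in bound libraries, against 23.3 and 17.1 CPM (UBS) and 15.3 and 15.96 CPM (UBGS) (log2 −2.56, SE 0.21, edgeR adjusted p = 1.4e-06). Neither gene had any overlap between groups. Acsbg1, an acyl-CoA synthetase, and Cbs, which makes cystathionine from homocysteine, were at 13.2% and 18.8% of unbound (log2 −2.92 and log2 −2.41).

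The 2 transcriptional regulators differed from each other. Sox9, which specifies glia, stood at 4.42, 5.04 and 5.56 CPM in bound libraries, against 29.4 and 30.8 CPM (UBS) and 25.8 and 23.3 CPM (UBGS), with no overlap (log2 −2.45, SE 0.14, edgeR adjusted p = 1.1e-07). Id4, an inhibitor of basic helix-loop-helix factors, stood at 15.9, 17.7 and 9.51 CPM in bound libraries, against 7.52 and 14.6 CPM (UBS) and 8.95 and 8.13 CPM (UBGS). Bound replicates 1 and 2 were above every unbound library and replicate 3 was not (log2 0.55, SE 0.26, edgeR adjusted p = 0.083). It passed as higher without bound replicate 3 (log2 0.78, adjusted p = 0.019), without unbound replicate 2, which is UBS8 (0.83, adjusted p = 0.012), with the UBGS libraries alone, with the length offset and with library totals, and adjusted p ran from 0.0084 to 0.53 over all alternatives.

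Of 7 genes for secreted and surface proteins 6 fell, with a median of −1.32. Lcat, which esterifies cholesterol, and F3, the tissue factor that starts clotting, were at 10.9% and 24.5% of unbound (log2 −3.19 and log2 −2.03). Itih3, whose protein binds hyaluronan, stood at 0.702, 0.496 and 0.204 CPM in bound libraries, against 5.82 and 4.49 CPM (UBS) and 2.80 and 2.40 CPM (UBGS) (log2 −3.02, SE 0.46, edgeR adjusted p = 0.00018). Htra1, a secreted protease, was at 41.9% (log2 −1.25).

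Apoe, the main lipid carrier made by astrocytes, stood at 29.6, 38.7 and 50.2 CPM in bound libraries, against 119.9 and 127 CPM (UBS) and 78.8 and 67.2 CPM (UBGS). All bound libraries were below all unbound ones (log2 −1.32, SE 0.25, edgeR adjusted p = 0.001). Since microglia make Apoe too, 12 microglial markers were summed beside it. They came to 347.9, 808.1 and 284.8 CPM in bound replicates 1 to 3 and 91.6 to 138.9 CPM in unbound libraries, and all 12 were higher in bound libraries. None was at 0 in any library. The part of microglial RNA in the Apoe value was not tested.

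Clu, the chaperone clusterin, and Sparcl1 (hevin), which acts at synapses, kept most of their level. Clu stood at 118, 103 and 130.3 CPM in bound libraries, against 193 and 171 CPM (UBS) and 115 and 115 CPM (UBGS), and its bound values spanned those of the UBGS pair but lay under the UBS pair. It did not pass (log2 −0.34, SE 0.18, edgeR adjusted p = 0.12). Against the UBS libraries alone it was lower (log2 −0.63, adjusted p = 0.0016), it was also lower with 3 groups in 1 fit and without UBGS9, against the UBGS libraries alone it did not pass (0.04, adjusted p = 0.72), and adjusted p ran from 0.0016 to 0.98 over all alternatives. Sparcl1 stood at 254, 247 and 259 CPM in bound libraries, against 367 and 295 CPM (UBS) and 282 and 269 CPM (UBGS), just without overlap (log2 −0.26, SE 0.10, edgeR adjusted p = 0.043). Its call was lost without any one of 6 libraries, UBGS9 being the exception, and with the length offset, the 1.5-fold minimum and UBGS alone, and with library totals its sign turned (0.18), as did that of Clu (0.09).

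The metallothioneins, small cysteine-rich proteins that bind zinc and copper, were the one set in which members changed in opposite directions. All lie on the plus strand of mouse chromosome 8 within a short stretch (mm10), Mt3 from 94152607 to 94154146, Mt2 from 94172664 to 94173568 and Mt1 from 94179082 to 94180327. The annotation has them as protein-coding genes, and counts cover their exons. Their promoters are shown because these neighbours differ in the bound RNA, and because Mt1 and Mt2 are known to be switched on by metals through metal response elements. Each window runs from 250 bases before to 50 after the RefSeq start (GRCm38.p6, plus strand, 5′ to 3′), at chr8:94178839-94179138 for Mt1, chr8:94172368-94172667 for Mt2 and chr8:94152357-94152656 for Mt3. Capitals mark the letters TGCACNC or TGCGCNC, the core of that element, on either strand.
Mt1: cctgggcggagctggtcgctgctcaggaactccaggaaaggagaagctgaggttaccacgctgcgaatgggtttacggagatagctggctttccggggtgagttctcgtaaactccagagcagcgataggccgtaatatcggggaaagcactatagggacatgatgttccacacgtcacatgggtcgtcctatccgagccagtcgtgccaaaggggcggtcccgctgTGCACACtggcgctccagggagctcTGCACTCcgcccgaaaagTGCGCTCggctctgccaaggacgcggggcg
Mt2: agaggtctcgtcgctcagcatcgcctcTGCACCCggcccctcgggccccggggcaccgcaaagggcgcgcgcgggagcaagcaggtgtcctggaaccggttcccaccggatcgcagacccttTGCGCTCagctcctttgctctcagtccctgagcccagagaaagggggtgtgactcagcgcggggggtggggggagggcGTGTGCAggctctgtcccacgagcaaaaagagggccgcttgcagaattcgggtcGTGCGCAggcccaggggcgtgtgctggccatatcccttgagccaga
Mt3: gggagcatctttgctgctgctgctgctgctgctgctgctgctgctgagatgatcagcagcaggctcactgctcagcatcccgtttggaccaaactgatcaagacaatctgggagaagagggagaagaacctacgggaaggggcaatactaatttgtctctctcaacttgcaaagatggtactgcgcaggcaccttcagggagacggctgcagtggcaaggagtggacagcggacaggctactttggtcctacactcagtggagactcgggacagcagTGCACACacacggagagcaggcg
The core was found at 3 places in the Mt1 window, 4 in Mt2 and 1 in Mt3, where 25.7% of all 32851 promoter windows of this length and 8 of 41 windows of the members (32 members had a window) held at least 1. A match of letters does not show that the site is used, and a link between these sites and the bound levels was not tested.

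Mt1 stood at 41.2, 42.9 and 52.1 CPM in bound libraries, against 67.7 and 64.05 CPM (UBS) and 60.9 and 57.5 CPM (UBGS). Mt2 stood at 31.2, 35.3 and 45.9 CPM in bound libraries, against 68.6 and 60.00 CPM (UBS) and 66.9 and 69.8 CPM (UBGS). Both were lower in every bound library than in any unbound one (log2 −0.46, SE 0.10, edgeR adjusted p = 0.002 for Mt1 and log2 −0.83, SE 0.12, edgeR adjusted p = 0.00017 for Mt2), yet by less than 2-fold. The Mt1 call was lost with library totals (adjusted p = 0.78) and with the 1.5-fold minimum (0.94). Mt3, known as a growth inhibitory factor of the brain and made by neurons as well as astrocytes, stood at 5.07, 5.27 and 5.94 CPM in bound libraries, against 2.64 and 3.86 CPM (UBS) and 2.70 and 1.98 CPM (UBGS). All 3 bound libraries were above all 4 unbound ones (log2 0.95, SE 0.24, edgeR adjusted p = 0.0045), where 31.7% of all genes tested had this order. The rise did not pass against a minimum of 1.5-fold (adjusted p = 0.062) or against the UBS libraries alone (log2 0.74, adjusted p = 0.052), with adjusted p from 0.00038 to 0.062 over all alternatives. The transcripts share no run of bases longer than 20 (Mt1 and Mt2, Mt2 and Mt3) or 27 (Mt1 and Mt3), and how reads with several matches were counted is not given in the sources used here.

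**Figure D3:**
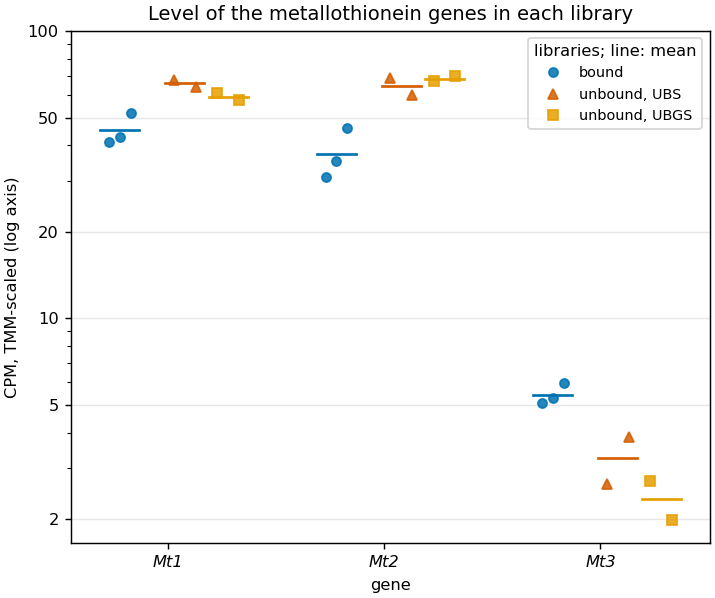
Level of the metallothionein genes in each library, in TMM-scaled CPM on a log axis, with a line at each mean. Bound values lie below all unbound values for Mt1 and Mt2 and above them for Mt3, which is present at a few CPM only.

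The members listed near the start as made by other cells too had a higher median bound level than the rest, with wide and overlapping ranges. Over the 10 of them (Apoe, Clu, Sparcl1, Mt1, Mt2, Mt3, S100b, Fabp7, Gpr37l1 and Id4) the median log2 fold change was −0.64 and the median bound level 64.6% of unbound (13.2% for Gpr37l1 and 19.8% for S100b up to 194.1% for Mt3), with 7 lower, 1 higher and 2 not passing. Over the other 28 the median was −2.75, and the median bound level 14.8% (2.63% to 102.8%), with 26 lower and 2, Gfap and Slc7a10, not passing. This split was made with earlier results of these data known and was not tested. The list may not be complete, so that the other 28 may also hold genes made by other cells. Exon length ranged from 588 to 10815 nucleotides among members. The median was −1.32 for 7 members under 2000 nucleotides, −2.59 for 20 from 2000 to under 4000 and −2.65 for 11 from 4000 up. All metallothioneins are among those 7, and medians of all genes by length are not given, so that these values show no effect of length.

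Summed over the 38 genes, the level was 1013, 1014 and 1166 CPM in bound replicates 1 to 3, against 2546 and 2290 CPM (UBS) and 1817 and 1785 CPM (UBGS). The bound sums were close to each other and below all unbound sums, with single genes such as Gfap and Bmpr1b varying more. Bound replicate 3 was the highest bound library for 22 of the 38 genes, replicate 2 for 9 and replicate 1 for 7. Leaving out 1 library at a time gave 30 to 34 genes that fell and 1 or 2 that rose.

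**Figure D4:**
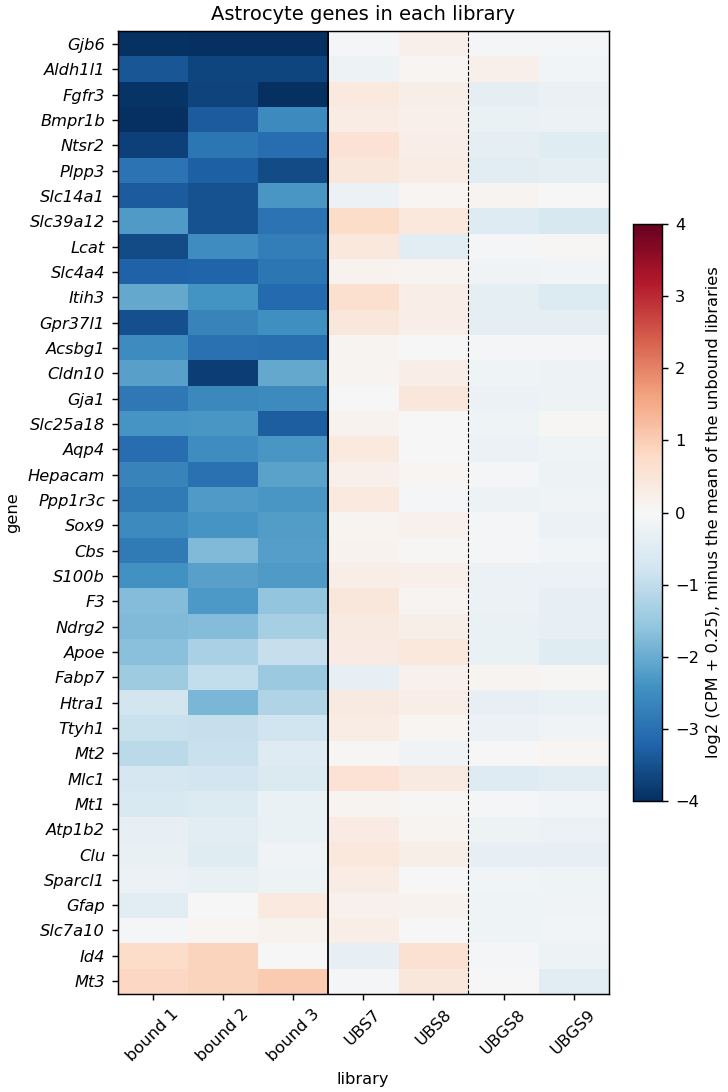
The 38 astrocyte genes in each library, coloured by log2 of CPM plus 0.25 minus the mean of that value over the 4 unbound libraries, in the order of the fitted fold change. The 3 bound libraries stand left of the solid line, and the UBS and UBGS libraries are parted by the dashed line; blue in the bound columns fades from Gjb6 at the top to Sparcl1, and the UBS columns are warmer than the UBGS columns in most genes.

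Other astrocyte genes, from a list of 28 that are no members, were described beside the members. Of these 28, 22 fell and 2 rose, with a median of −2.28. Slc1a2 (GLT-1), the main glutamate transporter, averaged 157 ± 10.5 CPM bound (SD, n = 3) against 2085 ± 441 CPM unbound (SD, n = 4), and Glul, glutamine synthetase, 115 ± 5.96 CPM bound (SD, n = 3) against 344 ± 55.3 CPM unbound (SD, n = 4). The 2 that rose were Sox2, a factor of neural stem cells and glia (log2 1.21, edgeR adjusted p = 9.1e-06), and Chrdl1, a secreted protein that binds bone morphogenetic proteins (0.81, adjusted p = 0.030). They are named after their values were seen. Of 20 genes known to rise in reactive astrocytes, 19 were tested, 11 fell and 2 rose, with a median of −0.93. Of all genes tested, 30.7% fell and 31% rose. Some of the reactive genes that fell were at very low levels in every library, so that their calls rest on few reads. Serpina3n, a protease inhibitor of the reactive list, averaged 24.9 ± 0.720 CPM bound (SD, n = 3) against 34.95 ± 2.31 CPM unbound (SD, n = 4) (log2 −0.49). Fkbp5, a chaperone induced by glucocorticoids, averaged 16.01 ± 3.98 CPM bound (SD, n = 3) against 31.4 ± 2.14 CPM unbound (SD, n = 4) (log2 −0.97).

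Set beside other cell types of the hippocampus, the astrocyte median of −2.50 lay among those of the oligodendrocyte lineage and vessel lists, and on the other side of 0 from that of microglia. Medians were −2.13 for oligodendrocytes (14 of 14 lower), −2.82 for their precursors (7 of 8 lower, 1 higher), −2.51 for endothelial and mural cells (10 of 12 lower), −4.67 for meningeal, choroid and ependymal cells (8 of 10 lower) and −4.50 for excitatory neurons (12 of 12 lower). Microglial genes were at 2.24 and GABAergic ones at 3.73, with 12 of 12 higher in each. Among all genes tested, 30.7% were lower and 31% higher. Differences between these medians were not tested.

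**Figure D5:**
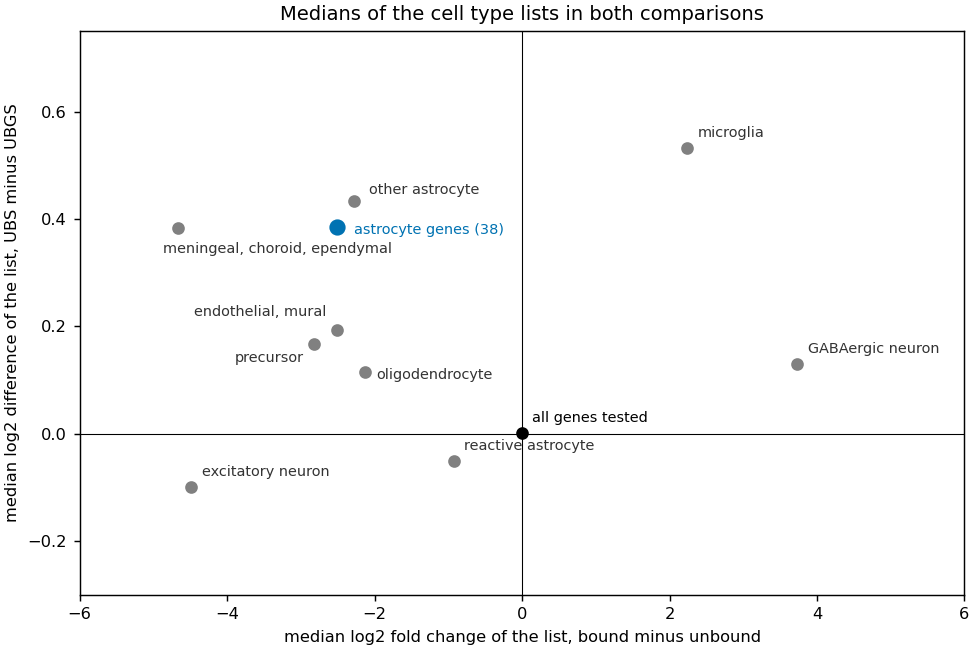
Median log2 fold change of each cell type list, bound minus unbound (x axis), against its median log2 difference, UBS minus UBGS (y axis), one point per list. The 38 astrocyte genes lie at −2.50 and 0.39, next to the list of other astrocyte genes at −2.28 and 0.43.

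Within the unbound group, astrocyte genes leaned towards the UBS libraries, a lean already known when these libraries were set apart by title, so that the values below describe it and do not support it. In the fit over the 4 unbound libraries, the log2 difference, UBS minus UBGS, was above 0 for 34 of the 38 genes, where it was above 0 for 50.1% of all 19256 genes tested. The median was 0.39 over the 38 genes and 0.0009 over all. In 30 members both UBS libraries were above both UBGS libraries, which was so for 25.6% of all genes, and in the other 8 the series overlapped. The unadjusted p was under 0.05 for 25 members, and for 16.8% of all genes. Only Plpp3 passed the threshold (edgeR adjusted p = 0.040), where 0.229% of all genes passed and 0.0935% passed as higher in UBS.

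Plpp3 averaged 71.6 ± 5.84 CPM (UBS) against 41.8 ± 0.953 CPM (UBGS; SD, n = 2 each), with CPM scaled over all 7 libraries. The log2 difference, fitted over the 4, was 0.77 (SE 0.08). Over the alternatives its adjusted p ran from 2.8e-08 to 0.38, and it did not pass with library totals (0.053), with 3 groups in 1 fit (0.38), without UBGS8 (0.24) or without UBGS9 (0.099). The largest difference was that of the zinc transporter gene Slc39a12, with 11.97 ± 1.73 CPM (UBS) against 5.21 ± 0.309 CPM (UBGS; SD, n = 2 each) (log2 1.20, SE 0.15, edgeR adjusted p = 0.07). Itih3 averaged 5.15 ± 0.940 CPM (UBS) against 2.60 ± 0.283 CPM (UBGS; SD, n = 2 each) (log2 0.98, SE 0.21, edgeR adjusted p = 0.15). Mlc1 averaged 24.4 ± 2.51 CPM (UBS) against 12.7 ± 0.501 CPM (UBGS; SD, n = 2 each) (log2 0.94, SE 0.11, edgeR adjusted p = 0.054), and Ntsr2 36.4 ± 5.55 CPM (UBS) against 19.7 ± 0.750 CPM (UBGS; SD, n = 2 each) (log2 0.88, SE 0.12, edgeR adjusted p = 0.082). In these 4 the UBS and UBGS libraries did not overlap, but the adjusted p stayed above the threshold.

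Apoe (log2 0.76, adjusted p = 0.059), Clu (0.66, 0.051) and Ndrg2 (0.58, 0.051) were close behind. With DESeq2 these and 10 further members passed, 13 in all, where 282 of all 39017 genes passed (0.723%). That share is over every row of the count table, of which 27607 had a count in the unbound libraries. It is therefore not on the base of the 19256 genes tested with edgeR. The 4 members that did not lean to UBS were Slc14a1, Fabp7, Aldh1l1 and Mt2, from −0.14 to −0.09, none past the threshold (adjusted p = 0.67, 0.73, 0.79 and 0.62). Gfap leaned to UBS with 64.2 ± 1.38 CPM (UBS) against 52.01 ± 0.497 CPM (UBGS; SD, n = 2 each) (log2 0.30, SE 0.07, edgeR adjusted p = 0.16). By role, the receptor and the secreted genes had the highest medians, 0.67 and 0.62, and the metallothioneins the lowest, 0.15.

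Of the 28 other astrocyte genes all 28 had a difference above 0 (median 0.43), and those that passed included the glutamate transporter gene Slc1a3 (log2 0.62, edgeR adjusted p = 0.032) and Mfge8 (0.87, adjusted p = 0.040), whose protein bridges cells to phagocytes. The medians of the microglial and of the meningeal, choroid and ependymal markers were 0.53 and 0.38, and those of oligodendrocytes, excitatory neurons, GABAergic neurons and reactive astrocyte genes 0.12, −0.10, 0.13 and −0.05. Gad2 leaned the same way (log2 0.72, adjusted p = 0.022), and Slc17a7 stood at 0.0008. Summed microglial markers were 115.8 to 138.9 CPM in UBS and 91.6 to 92.5 CPM in UBGS libraries, and their part in the astrocyte values was not tested.

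The distance between bound and unbound levels depended on which unbound libraries were used. Both comparisons share the 3 bound libraries. With UBS alone 34 members fell and 0 rose (edgeR, Mt3 at an adjusted p of 0.052), with a median of −2.66, and with UBGS alone 30 fell and 2, Id4 and Mt3, rose, with a median of −2.31. The bound mean as a share of unbound was higher against UBGS than against UBS for 34 of the 38 genes. Since both shares have the same bound mean, this count restates the lean to UBS given above and adds nothing to it. For Apoe the share was 31.97% of the UBS and 54.1% of the UBGS mean, for Ndrg2 26.9% and 40.4%, and for Clu 64.5% and 102%. For Gjb6 and Aldh1l1 it stayed at 2.48% and 3.90% of the UBS and 2.81% and 3.60% of the UBGS mean.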

How the data were processed

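Raw read counts, whole numbers for each Ensembl gene ID, were deposited for the 7 libraries. Per the submitters' processing notes, the authors used STAR 2.5.3a and HTSeq (version not stated) with the mm10 build. For the annotation release, the strand setting and reads with several matches, the sources used here give nothing. IDs were named from GENCODE M21 (37693 of 39017 matched).

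The fits used edgeR 4.0.16 (R 4.3.3): filterByExpr by group, TMM scaling over all genes kept, glmQLFit with robust estimation, glmQLFTest, and Benjamini-Hochberg adjustment over all genes tested (19563 for bound against unbound, 19256 for UBS against UBGS, fitted on the 4 unbound libraries alone), called at 0.05 without a fold limit. Log2 fold changes are bound minus unbound, or UBS minus UBGS, and the standard error (SE) came from the F statistic. The code was tested on simulated counts, where part of the changed genes were missed in both comparisons. The false share of calls was near the nominal rate for bound against unbound and above it for UBS against UBGS. Few genes were changed in the simulation, as many up as down, whereas 61.7% of all genes tested passed between bound and unbound libraries. The simulation therefore does not give the error rate of the calls made here. TPM used merged exon lengths. Promoters are RefSeq's (GRCm38.p6). No 2 libraries of 1 group agreed within sampling noise (5.57 to 46.3 times the counting variance).

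The members, the gene lists and the split by title were chosen with earlier results of these data known. Members given library by library were picked by rule: the 2 with the highest mean TPM in each role, the 4 with the lowest and the 4 with the highest fold change, the 5 with the largest UBS difference, and those past the threshold there or not past it between bound and unbound. Further ones (Apoe among them) were added after their values were seen. Of the other astrocyte and the reactive list the rule names the 2 with the highest mean CPM, and other genes of these lists were named after their values were seen. A result for 1 gene of these lists is not reported here. Of other cell types only medians, sums and counts are given, beside Gad2 and Slc17a7.

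Alternatives were DESeq2 1.42.0, library totals in place of TMM, no filter, an exon length offset, a minimum of 1.5-fold, each unbound series alone, 3 groups in 1 fit, and leaving out each library.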

Additional observations from a re-analysis of the deposited data

How the results depend on the processing

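Of all genes, 12076 differed between bound and unbound libraries, 50.3% of them higher in bound. Scaling by library totals gave a share of 71.5% and a median over all genes of 0.43, against −0.0075 with TMM, and the exon length offset gave 61.5% and 0.17. The median of all genes was −0.22 with DESeq2 and −0.17 with no filter. Directions are relative to the TMM scaling. The 1.5-fold minimum left 6854 genes. The number of astrocyte genes that fell, 33, ranged from 29 (library totals, 1.5-fold minimum) to 34. The number that rose, 1, was 4 with library totals, 2 with the length offset, 0 with the 1.5-fold minimum, 0 with UBS alone and 2 with UBGS alone. The members' median of −2.50 was −2.07 with library totals, −2.25 with the length offset, −2.66 with UBS alone and −2.31 with UBGS alone. Leaving out 1 library gave 10861 to 11831 genes, 30 to 34 members lower, 1 to 2 higher and medians from −2.56 to −2.37. The cause of these moves was not tested. Signs turned for members near 0: with library totals Atp1b2 (0.072), Clu (0.094) and Sparcl1 (0.18), with the length offset Slc7a10 (−0.0099), with UBS alone Gfap (−0.12) and Slc7a10 (−0.10), and with UBGS alone Clu (0.045). Leaving out 1 library, Gfap ran from −0.19 to 0.21 and Slc7a10 from −0.014 to 0.15.

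Between UBS and UBGS, 44 genes and 1 member passed. DESeq2 gave 282 genes and 13 members, no filter 104 and 8, library totals 22 and 0, and 3 groups in 1 fit 22 and 0. Leaving out 1 library gave 16 to 7389 genes, 0 to 27 members higher, 0 to 2 lower and medians from 0.32 to 0.43. A series left with 1 library takes its spread from the other libraries. The high counts (4684 and 7389) came without UBS7 or UBS8, when only the UBGS pair, with 5.57 times the counting variance between its libraries (UBS pair 30.4), gave the spread. Leaving out 1 library turned signs for Aldh1l1 (−0.28 to 0.0545), Slc14a1 (−0.32 to 0.013), Fabp7 (−0.40 to 0.098), Lcat (−0.42 to 0.44) and Id4 (−0.19 to 0.77). No paired analysis was possible because bound and unbound titles share no number and UBS and UBGS titles share only 1. With 9 members under 100 counts in every bound library, depth limits how far their falls can be sized.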
